A study of Homo sapiens with 12 samples.

Results

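The 10 genes POLA1, POLA2, PRIM1, PRIM2, POLD1, POLD2, POLD3, POLE, POLE2 and PCNA encode the core of the machinery that copies nuclear DNA. They were chosen by name, by a rule that uses no measured value but was set with earlier results of these data known. All 10 were found among the 19460 genes of the RNA table. The cells were T-47D, an established epithelial breast cancer line that carries the oestrogen receptor, with the genotype given as WT. For RNA, poly(A) RNA was sequenced from 3 samples given DMSO and 3 given 1 µM palbociclib, an inhibitor of the cyclin-dependent kinases CDK4 and CDK6, for 24 h in DMEM with 10% serum. For ATAC-seq, which reads how open chromatin is to the transposase Tn5, 3 dishes received 0.1% DMSO and 3 received 1 µM palbociclib for 24 h. The study's design text calls the 3 samples of a group biological replicates, all from this 1 cell line; the sample titles do so for ATAC-seq and only number the RNA samples.

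Replication needs a division of labour between enzymes. DNA polymerase alpha, with its bound primase, lays down short RNA-DNA primers. Polymerase epsilon extends the leading strand and polymerase delta the lagging strand, and PCNA is the ring-shaped clamp that holds polymerases on DNA. CDK4 and CDK6 phosphorylate the retinoblastoma protein, which otherwise restrains E2F transcription factors, and many replication genes are known E2F targets.

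RNA levels are FPKM, fragments scaled to transcript length and library depth, so levels can be set side by side between genes. Changes are differences of log2(FPKM + 1), palbociclib minus DMSO, tested with limma over the 15869 genes with a mean of at least 0.5 FPKM. A gene is called higher or lower at a Benjamini-Hochberg adjusted p under 0.05. Log2 profiles of libraries of the same group had a Pearson r of at least 0.995, and of different groups at most 0.971, across genes. All 8 luminal epithelial markers, KRT8, ESR1 and GATA3 among them, were above 1 FPKM in the table. Their summed level was 5510 to 6038 FPKM in DMSO and 7386 to 8176 FPKM with palbociclib, mostly from KRT8, KRT18 and KRT19. EPCAM did not follow the sum, at 201, 185 and 201 FPKM in DMSO and 189, 175 and 167 FPKM with palbociclib. Of the 15 basal, fibroblast, endothelial and leukocyte markers, 5 were in the table and the others were not. TP63 was at 0.113 FPKM or less and COL1A1 at 23.1 to 26.0 FPKM in both groups, and the part of such markers in the results below was not tested. In bulk RNA, fewer cells that express a gene and less RNA per cell cannot be told apart.

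All 10 genes were lower with palbociclib, and 9 of them by at least 1 log2. Over all genes tested, 22.9% were called lower, 20.9% were called higher and 3.04% were called lower by at least 1 log2. In each of the 10 genes the 3 palbociclib libraries lay below the 3 DMSO libraries, which held for 28.2% of all genes. The median change of the 10 genes was -1.35, against 0.0023 for all genes tested. In single libraries the median deviation of the 10 from their DMSO mean was between -0.04 and 0.03 under DMSO and between -1.39 and -1.38 with palbociclib, so the 3 treated samples were close to each other.

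**Figure D1:**
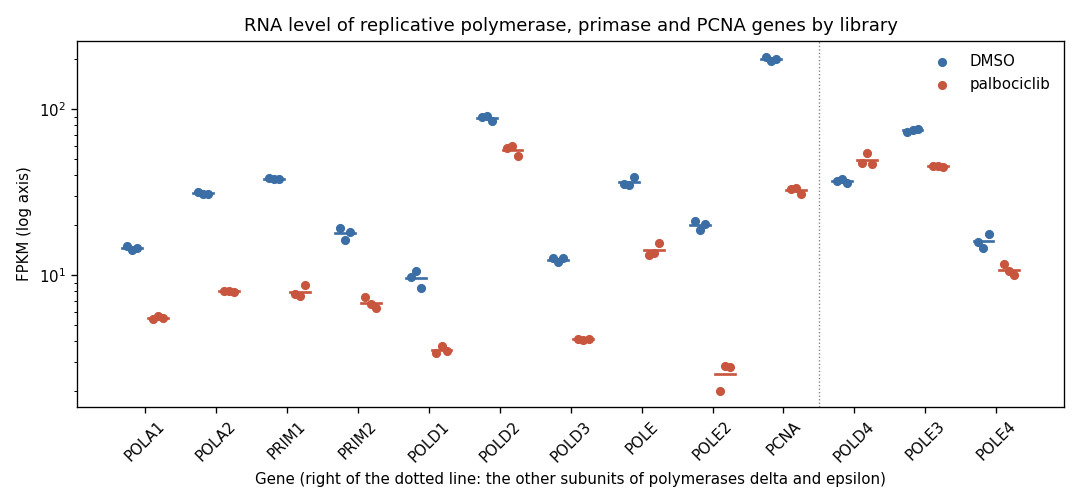
FPKM on a log axis in each of the 6 RNA libraries for the 10 genes and, right of the dotted line, the other 3 subunits of polymerases delta and epsilon. Points are libraries and bars are group means. PCNA falls from 201 to 32.5 FPKM and POLE2 from 20.0 to 2.54 FPKM, while POLD2 falls by less and POLD4 is higher with palbociclib.

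The polymerase alpha-primase complex starts every new strand. POLA1 (ENSG00000101868), the catalytic subunit of polymerase alpha, was at 15.0, 14.1 and 14.6 FPKM in the DMSO libraries and at 5.44, 5.63 and 5.49 FPKM with palbociclib. This left 37.9% of the DMSO mean, a log2 change of -1.25 (SE 0.0478, limma adjusted p 1.78e-07). POLA2 (ENSG00000014138), its regulatory B subunit, stood at 31.8, 30.7 and 30.6 FPKM under DMSO and at 8.03, 8.04 and 7.91 FPKM with the drug. It fell further, to 25.8% of the DMSO mean (log2 -1.83, SE 0.0393, limma adjusted p 4.27e-09). PRIM1 (ENSG00000198056), the catalytic primase subunit, was at 38.2, 38.1 and 38.1 FPKM in DMSO and at 7.70, 7.45 and 8.65 FPKM with palbociclib. The remaining 20.8% made it the most reduced of the 4 genes of this complex (log2 -2.13, SE 0.0544, limma adjusted p 1.29e-08). PRIM2 (ENSG00000146143), the large primase subunit, was at 19.2, 16.3 and 18.3 FPKM in DMSO and 7.34, 6.69 and 6.33 FPKM with palbociclib. It kept 37.9% of its DMSO level, as POLA1 did (log2 -1.28, SE 0.0730, limma adjusted p 2.70e-06). PRIM2 has a pseudogene copy, PRIM2BP, and how shared reads were divided is not given in the sources used here.

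Polymerase delta has the catalytic subunit POLD1 and the accessory subunits POLD2, POLD3 and POLD4. POLD1 (ENSG00000062822) was the lowest of the 10 genes in DMSO, at 9.77, 10.6 and 8.39 FPKM, and was at 3.38, 3.76 and 3.50 FPKM with palbociclib. That is 37.0% of the DMSO mean (log2 -1.22, SE 0.0838, limma adjusted p 8.91e-06). POLD2 (ENSG00000106628), which bridges POLD1 and POLD3, was at 89.9, 90.4 and 84.5 FPKM in DMSO and at 58.2, 59.9 and 52.2 FPKM with the drug. Its fall was the smallest of the 10, to 64.3% (log2 -0.63, SE 0.0539, limma adjusted p 3.40e-05), with no overlap between the groups. A pseudogene copy, POLD2P1, makes its level less certain. POLD3 (ENSG00000077514), which carries a PCNA-binding motif, was at 12.6, 11.9 and 12.6 FPKM in DMSO and at 4.12, 4.04 and 4.11 FPKM with palbociclib. It was left at 33.0% (log2 -1.40, SE 0.0505, limma adjusted p 1.26e-07). POLD4 (ENSG00000175482), the small accessory subunit and not 1 of the 10 genes, went the other way. It rose from 37.0 ± 1.00 to 49.6 ± 4.13 FPKM (SD, n = 3), a log2 change of 0.41 (limma adjusted p 0.000583).

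Polymerase epsilon joins the catalytic subunit POLE with POLE2 and the histone-fold subunits POLE3 and POLE4. POLE (ENSG00000177084) was at 35.6, 34.7 and 38.8 FPKM in DMSO and at 13.1, 13.6 and 15.7 FPKM with palbociclib. Its level was 38.8% of that in DMSO (log2 -1.31, SE 0.0697, limma adjusted p 1.79e-06). POLE2 (ENSG00000100479), the B subunit, was at 21.0, 18.7 and 20.4 FPKM in DMSO and at 2.01, 2.82 and 2.78 FPKM with the drug. It kept the smallest share of the 10 genes, 12.7% of the DMSO mean, and became the lowest of them (log2 -2.58, SE 0.0966, limma adjusted p 1.58e-07). The pseudocount of 1 FPKM draws the change of so low a gene toward 0. In the authors' deposited table the POLE2 change is -2.99. POLE3 (ENSG00000148229) fell from 74.6 ± 1.62 to 45.2 ± 0.198 FPKM (SD, n = 3; log2 -0.71, limma adjusted p 4.52e-07). POLE4 (ENSG00000115350) fell from 15.9 ± 1.53 to 10.8 ± 0.830 FPKM (SD, n = 3; log2 -0.53, limma adjusted p 0.000762). Both histone-fold subunits thus kept a larger share of their RNA, 60.6% and 67.4%, than POLE or POLE2.

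PCNA (ENSG00000132646) was by far the most abundant of these RNAs in DMSO, at 205, 196 and 201 FPKM. With palbociclib it was at 32.9, 33.6 and 31.0 FPKM, which is 16.2% of the DMSO mean (log2 -2.59, SE 0.0383, limma adjusted p 6.00e-10). PCNA has several pseudogenes and an antisense transcript, PCNA-AS1, and neither the counting strand nor the handling of shared reads is given in the sources used here. In the authors' deposited table, made with DESeq2 from the same libraries, the 10 genes had mean normalized counts from 840 in POLE2 to 8037 in PCNA. The log2 changes in the authors' deposited table ran from -2.99 in POLE2 to -0.64 in POLD2, all 10 of them below 0.

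The order of levels changed with treatment. In DMSO it ran from PCNA through POLD2, PRIM1, POLE, POLA2, POLE2, PRIM2, POLA1 and POLD3 to POLD1. Neighbours in this order did not overlap between libraries except PRIM1 with POLE and POLE2 with PRIM2. With palbociclib POLD2 came first, at 56.8 ± 4.03 FPKM against 32.5 ± 1.37 FPKM for PCNA (SD, n = 3). POLE, POLA2, PRIM1, PRIM2, POLA1, POLD3, POLD1 and POLE2 followed, and of these neighbours POLA2 and PRIM1 overlapped. By size of change in log2(FPKM + 1), PCNA and POLE2 overlapped at the head. PRIM1 and POLA2 then stood apart from each other and from the rest. POLD3, POLE, PRIM2, POLA1 and POLD1 formed a run in which each overlapped the next, with changes from -1.40 to -1.22, and POLD2 stood apart at the end. Among all 15869 genes ranked from the largest fall, PCNA was at place 111, POLE2 at 113, PRIM1 at 177 and POLA2 at 228. The group from POLD3 to POLD1 lay at places 308 to 373, and POLD2 at 919. The order of changes depended on the pseudocount of 1 FPKM. With 0.1 FPKM, POLE2 was at -2.95 and PCNA at -2.62. POLD1 was then at -1.405, a larger fall than in PRIM2 (-1.39), POLA1 (-1.38) and POLE (-1.36).

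Subunits of 1 enzyme fell unequally, so the ratios between them were compared. Each ratio is FPKM over FPKM within a library, given as the geometric mean of 3 libraries, and 10 ratios were tested with an exact permutation test, two-sided. With 3 libraries against 3 that test cannot go below 0.10, and the smallest value found after adjustment over the 10 ratios was 0.125. POLE2 to POLE went from 0.551 to 0.178, a log2 difference of -1.63 with no overlap (exact permutation p 0.1). Its values were 0.590, 0.539 and 0.526 in DMSO and 0.153, 0.208 and 0.177 with palbociclib. POLA2 to POLA1 went from 2.13 to 1.45, and PRIM1 to POLA1 from 2.62 to 1.43, each without overlap. PRIM2 to POLA1 was 1.23 in both groups, with values of 1.15 to 1.28 in DMSO and 1.15 to 1.35 with palbociclib (exact permutation p 1). A p of this size does not show that the ratio was equal in both groups.

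Within polymerase delta, POLD2 and POLD4 gained on POLD1. POLD2 to POLD1 rose from 9.23 to 16.0 and POLD4 to POLD1 from 3.87 to 14.0, so POLD4, the subunit that rose, gained 1.85 on the log2 scale over the catalytic subunit. POLD3 to POLD1 was 1.30 in DMSO and 1.15 with the drug, and the groups overlapped (exact permutation p 0.3). PCNA to POLD1 fell from 21.0 to 9.16. POLE3 to POLE went from 2.05 to 3.21 and POLE4 to POLE from 0.438 to 0.762. All of these except POLD3 to POLD1 were free of overlap, with an exact permutation p of 0.1, the smallest the design allows. How often ratios between other genes are free of overlap was not tested, and the ratios rest on the same levels as the changes above.

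**Figure D2:**
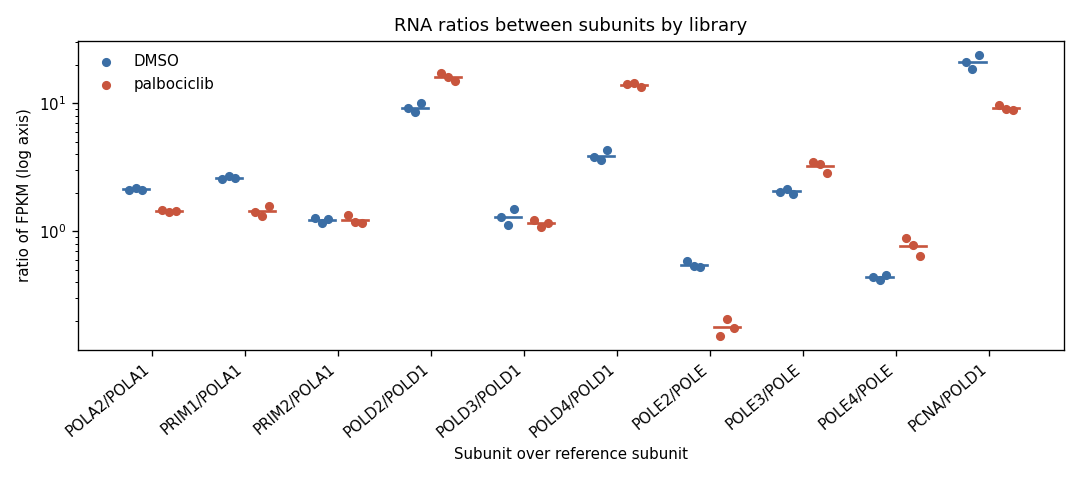
Ratio of FPKM between a subunit and a reference subunit in each library, on a log axis. Points are libraries and bars are arithmetic group means. As geometric means, POLE2 over POLE falls from 0.551 to 0.178 and POLD4 over POLD1 rises from 3.87 to 14.0. That of PRIM2 over POLA1 is 1.23 in both groups.

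Genes that work beside these enzymes were taken from lists. Over all genes tested, 22.9% were called lower and 20.9% higher, and the counts of each list stand against these shares. Among 18 clamp loaders and PCNA partners, 15 were lower, 1 was higher and 2, CHTF8 and SHPRH, were not called, with a median of -1.69. The largest falls were in PCLAF, a small PCNA-binding protein (142 to 12.1 FPKM, log2 -3.45), DSCC1, of an alternative clamp loader (12.1 to 0.987 FPKM, log2 -2.73), and UHRF1, which helps to keep DNA methylation through replication (log2 -2.52). All 5 subunits of the clamp loader RFC fell, with RFC1 at -0.47 and RFC2 to RFC5 between -2.17 and -1.63. WDR48, a cofactor of the deubiquitinase USP1, was the 1 gene called higher (log2 0.14, limma adjusted p 0.0337), and it lost that call when any of 5 single libraries was left out (limma adjusted p 0.0589 to 0.111). USP1 itself was lower, at -1.36. The RFC genes and USP1 are named after their values were seen.

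All 20 genes for the fork helicase and single-strand binding were lower, 17 of them by at least 1 log2, with a median of -2.23. MCM10 (log2 -3.45), CDC45 (log2 -3.12) and GINS2 (log2 -2.81), which load or form part of the helicase, fell most on the scale with a pseudocount of 1 FPKM. That scale draws low genes toward 0. By share of the DMSO mean left, CLSPN, a checkpoint mediator at the fork that is named after its values were seen, was at 4.82%, between MCM10 at 3.81% and CDC45 at 6.52%. With a pseudocount of 0.1 FPKM the changes were -4.51 for MCM10 and -3.85 for CDC45, and -3.52 for DSCC1 of the clamp loader list. The 3 subunits of the single-strand binding protein RPA fell less, by -0.77 (RPA1), -0.80 (RPA2) and -1.07 (RPA3), and are named after their values were seen. The median of the list lay below the -1.35 of the 10 genes.

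The list of DNA polymerases with other tasks had a median change nearer 0, with POLQ far from it. It also holds the partner proteins MAD2L2, POLDIP2 and POLDIP3. Of 16 genes for repair, translesion and mitochondrial synthesis, 15 passed the filter on low values and POLN did not. Of these, 5 were lower, 1 was higher and 9 were not called, with a median of -0.10. Over all genes tested, 22.9% were called lower and 20.9% higher, and so small a count is not read as a trait of the list. POLQ, of end joining by short homologies, fell from 5.84 to 0.499 FPKM, to 8.54% of its DMSO mean, a smaller share than in any of the 10 genes. Its log2 change was -2.19, or -3.31 with a pseudocount of 0.1 FPKM. POLH, which copies past ultraviolet damage, was at -0.91 and PRIMPOL, a primase that restarts stalled forks, at -0.81. The remaining genes called lower were MAD2L2 (-0.64) and POLDIP3 (-0.12), named after their values were seen. POLL, of DNA end joining and base excision repair, was the 1 gene higher (log2 0.18, limma adjusted p 0.00922). RNA polymerase II served as a comparison with another multi-subunit polymerase. Of its 12 subunits 10 were lower and 0 higher, with a median of -0.18, and POLR2D (-0.59), POLR2I (-0.39) and POLR2F (-0.29) fell most. With each library centred on its median gene 5 of the 12 were lower, and with quantile normalization 8 of the 12, so the count depended on the scaling. POLR2D, POLR2I and POLR2F stayed lower under both scalings, as did the 10 replication genes.

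**Figure D3:**
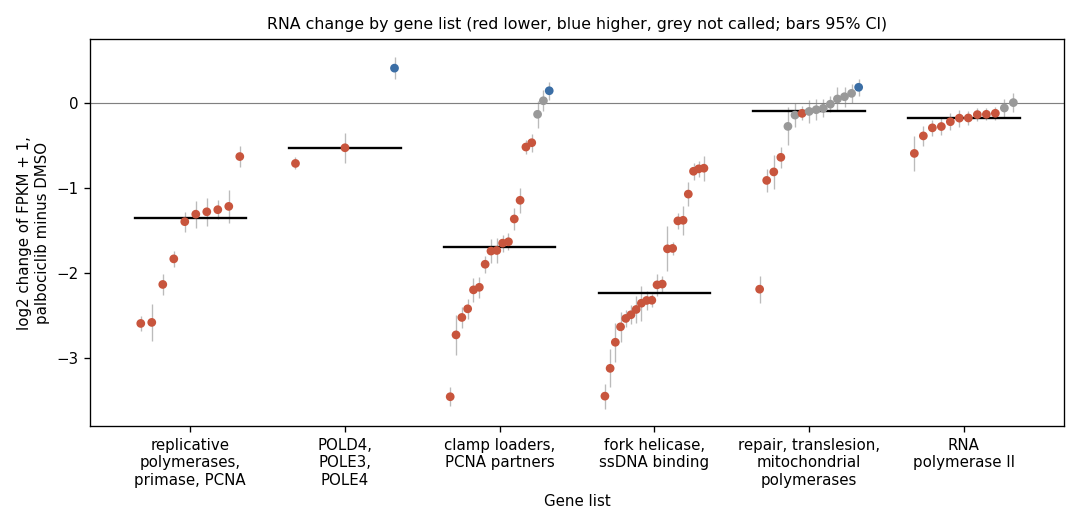
Log2 change of FPKM + 1 for each gene of 6 lists, with 95% confidence intervals from limma; red points are called lower, blue higher and grey neither, and black lines are list medians. The medians are -1.35 for the 10 genes, -1.69 for clamp loaders and PCNA partners and -2.23 for the fork helicase list. They are -0.10 for the list of other DNA polymerases and partner proteins and -0.18 for RNA polymerase II.

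The genes whose profile over the 6 RNA libraries lay nearest to the median profile of the 10 were DEK, ECT2, TIMELESS, GGH and WEE1. Their root mean square distance was 0.0236 to 0.0440 log2 units, and their own changes were -1.43 to -1.35. TIMELESS, a fork protection protein, is also in the fork helicase list. DEK is a chromatin protein, ECT2 an exchange factor of cell division, GGH a hydrolase of folate polyglutamates and WEE1 an inhibitory kinase of CDK1.

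Promoter sequences are shown because 4 words known as E2F sites, TTTCCCGC, TTTGGCGC, TTTCGCGC and TTTGCCGC, lay in several of these promoters, and because the ATAC peaks below cover some of them. RefSeq (GRCh38.p14) gave start sites for 9 of the 10 genes in its promoter table, in 12 windows of 280 bases, from 250 bases before the start to 30 after it. Both strands were searched. At least 1 word occurred in 5 of the 9 genes, POLA1, POLA2, POLE, POLE2 and PCNA, or 5 of the 12 windows, and in 3.14% of all 35116 windows of the same length. Windows are read 5′ to 3′ on the gene's strand, with the word in capitals, as its reverse complement where it lies on the other strand. The POLA1 window is chrX:24693668-24693947 (plus strand), with the word at position -137 from the start. The POLA2 window is chr11:65261712-65261991 (plus strand), with the word at -53. The POLE2 window is chr14:49688185-49688464 (minus strand), with the word at -5. PCNA has a window at each of 2 listed starts, both on the minus strand. The upstream start, chr20:5126593-5126872, holds a word at -59 that overlaps a GC box, and the downstream start, chr20:5119929-5120208, holds none.
POLA1: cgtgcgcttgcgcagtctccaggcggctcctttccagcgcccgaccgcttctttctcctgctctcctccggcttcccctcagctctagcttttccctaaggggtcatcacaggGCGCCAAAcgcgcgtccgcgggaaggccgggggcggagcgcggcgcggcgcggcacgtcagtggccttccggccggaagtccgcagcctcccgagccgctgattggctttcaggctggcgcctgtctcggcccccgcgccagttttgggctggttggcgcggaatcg
POLA2: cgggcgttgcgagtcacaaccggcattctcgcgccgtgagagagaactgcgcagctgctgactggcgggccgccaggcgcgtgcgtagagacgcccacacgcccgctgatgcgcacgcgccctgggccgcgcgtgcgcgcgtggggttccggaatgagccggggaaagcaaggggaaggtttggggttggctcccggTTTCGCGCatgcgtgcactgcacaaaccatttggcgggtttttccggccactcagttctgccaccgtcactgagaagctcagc
POLE2: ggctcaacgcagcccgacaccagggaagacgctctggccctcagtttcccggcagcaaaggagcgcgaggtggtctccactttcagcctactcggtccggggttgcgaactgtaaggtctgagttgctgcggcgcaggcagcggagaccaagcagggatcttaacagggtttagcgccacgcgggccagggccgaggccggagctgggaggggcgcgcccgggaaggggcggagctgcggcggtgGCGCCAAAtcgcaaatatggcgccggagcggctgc
PCNA upstream start: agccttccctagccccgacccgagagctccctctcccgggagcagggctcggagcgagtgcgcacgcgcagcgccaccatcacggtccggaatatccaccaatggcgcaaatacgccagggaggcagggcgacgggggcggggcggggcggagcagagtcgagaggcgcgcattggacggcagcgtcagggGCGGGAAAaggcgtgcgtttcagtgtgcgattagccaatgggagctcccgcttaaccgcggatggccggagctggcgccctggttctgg
PCNA downstream start: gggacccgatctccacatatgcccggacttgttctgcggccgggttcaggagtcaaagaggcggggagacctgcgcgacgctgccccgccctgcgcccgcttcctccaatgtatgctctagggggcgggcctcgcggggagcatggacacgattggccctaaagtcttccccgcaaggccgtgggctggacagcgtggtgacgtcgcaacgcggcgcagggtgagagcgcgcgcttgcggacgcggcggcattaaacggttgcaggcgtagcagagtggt

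In POLE the word lay at -18 of the start at base 132687342 of chromosome 12. The 5 genes with a word had RNA changes from -2.59 to -1.25, and the other 4 with a window, PRIM1, PRIM2, POLD1 and POLD2, from -2.13 to -0.63, so the ranges overlapped. The CCAAT box (CCAAT) was in 5 of the 9 genes (6 of the 12 windows) and in 33.6% of all windows. The GC box (GGGCGG) was in 6 of the 9 (7 of the 12 windows) and in 44.1% of all windows. The word TTTGAA, known from promoters of late cell cycle genes, was in 0 of the 9 and in 14.5% of all windows. A match describes letters only and does not show that a factor binds there.

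ATAC-seq counted reads in 38121 peaks shared by all libraries, with 12830062 to 18250496 reads in peaks per library. Peaks are given in hg38, the build in the submitters' processing notes, and edgeR (quasi-likelihood, adjusted over all peaks by Benjamini-Hochberg) compared the groups. Values are TMM-scaled CPM, counts scaled to library size. The SE given for a peak is the size of its log2 change divided by the square root of edgeR's F statistic. A peak lay within 1 kb of a start in 5 of the 10 genes, POLA1, POLA2, POLD3, POLE2 and PCNA. Of the 7886 genes with a mean of at least 5 FPKM and a listed start, 44.9% had such a peak. Of the 5 peaks, 4 were called lower with palbociclib, where 6.46% of all peaks were lower and 5.41% higher.

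The POLE2 peak, chr14:49687590-49688504, spans the start and the E2F word printed above. It was at 31.6, 31.6 and 32.0 CPM in DMSO and at 19.8, 17.6 and 23.7 CPM with palbociclib, without overlap (log2 -0.64, SE 0.0904, edgeR adjusted p 2.46e-07). The POLD3 peak, chr11:74592104-74593181, was at 50.1, 50.03 and 44.7 CPM in DMSO and at 35.4, 34.8 and 34.0 CPM with the drug (log2 -0.48, SE 0.0721, edgeR adjusted p 1.49e-06). Its groups also stood apart. The POLA2 peak, chr11:65261439-65262442, was at 90.3, 78.4 and 85.1 CPM in DMSO and at 60.4, 62.1 and 63.9 CPM with palbociclib (log2 -0.44, SE 0.0593, edgeR adjusted p 7.02e-08). It too covers the word shown in capitals.

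The PCNA peak, chr20:5119385-5120337, was the strongest of the 5. It was at 189, 172 and 199 CPM in DMSO and at 151, 152 and 140 CPM with palbociclib (log2 -0.34, SE 0.0489, edgeR adjusted p 4.96e-07). It lies at the downstream start, which it shares with the antisense PCNA-AS1, and no peak lay within 1 kb of the upstream start at base 5126622. The POLA1 peak, chrX:24693440-24694225, was at 87.1, 81.2 and 88.6 CPM in DMSO and at 83.7, 80.0 and 72.6 CPM with palbociclib. These groups overlapped and the peak was not called (log2 -0.12, SE 0.0576, edgeR adjusted p 0.187). The POLA1 peak covers the word printed for POLA1, as the POLE2 and POLA2 peaks cover theirs. POLA1 RNA was at 37.9% of its DMSO level. A link between word, peak and RNA was not tested. Each of the 5 changes in accessibility was smaller in size than the RNA change of its gene, on log2 scales that are not the same quantity. Among the other subunits, chosen for this after their values were seen, the POLD4 start peak was at 0.02 (edgeR adjusted p 0.864) and the POLE4 start peak at -0.19 (edgeR adjusted p 0.0190).

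No peak in the table lay within 1 kb of the starts of PRIM1 (base 56752323 of chromosome 12), POLE (base 132687342 of chromosome 12), POLD1 (bases 50384323 and 50398852 of chromosome 19), POLD2 (bases 44123548 and 44124325 of chromosome 7) or PRIM2 (bases 57221540, 57314805 and 57317630 of chromosome 6). For these 5 genes accessibility at the start was not measured, which does not show closed chromatin.

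Peaks inside the genes, away from the starts, were looked at after the data had been seen. There were 6, and 1 was called, where 5.41% of all peaks were called higher and 6.46% lower. A single call among 6 peaks is not read as a trait of these genes. The called peak, chr11:74634542-74635167 in POLD3, has its centre 42272 bases downstream of the start. It rose from 21.2, 20.0 and 18.8 CPM in DMSO to 23.9, 26.4 and 27.4 CPM with palbociclib (log2 0.37, SE 0.0919, edgeR adjusted p 0.00343). POLD3 thus had a peak that was lower at its start and a peak that was higher within the gene, while its RNA fell. The peaks in PRIM2 (log2 0.43, edgeR adjusted p 0.141), POLE (log2 0.44 and 0.18, edgeR adjusted p 0.119 and 0.233), POLA2 (log2 0.12, edgeR adjusted p 0.537) and POLA1 (log2 -0.17, edgeR adjusted p 0.534) were not called.

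**Figure D4:**
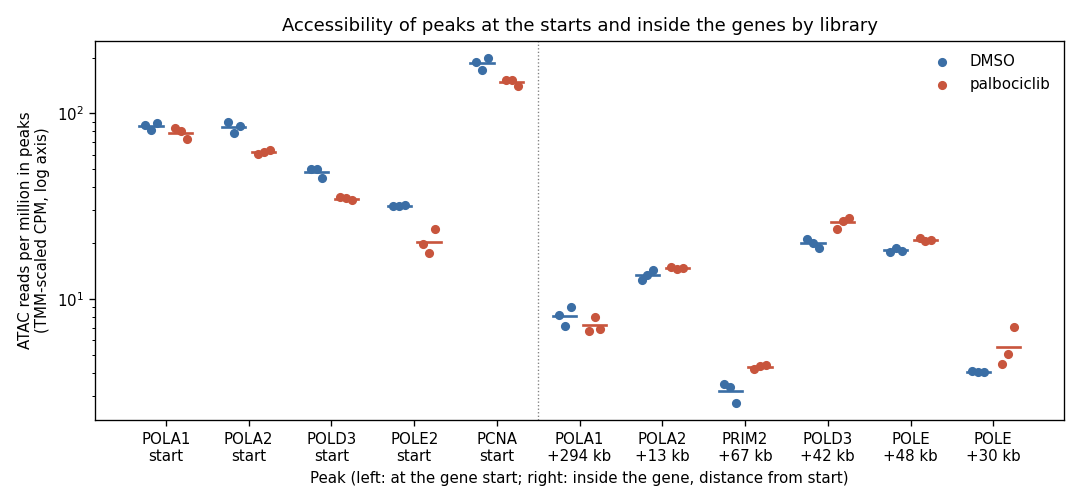
TMM-scaled CPM on a log axis in each of the 6 ATAC libraries, for the 5 peaks at gene starts (left of the dotted line) and the 6 peaks inside genes (right, with the distance from the start); points are libraries and bars are group means. At the starts POLA2, POLD3, POLE2 and PCNA are lower with palbociclib and POLA1 overlaps, and inside POLD3 the peak rises from 20.0 to 25.9 CPM.

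Splicing was read from the same RNA libraries as inclusion levels, meaning the fraction of transcripts with the exon, intron or longer exon form. The tables listed 159 events in the 10 genes, from 64 in POLD2 to 3 in PCNA, and 40 had enough reads in both forms to be tested. The edgeR quasi-likelihood test called 0 of the 40, against 0.355% of all 37445 events tested, and 3 had an unadjusted p under 0.05. None of the 40 differed in inclusion by 0.1 or more. The shares of all events with such an unadjusted p or such a difference are not given here, so neither count is read as a trait of the 10 genes. No PCNA event passed the read filters.

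The event with the smallest p was the retention of a 71-base intron of PRIM1, at chr12:56746855-56746925 on the minus strand. It was retained in 3.97%, 5.20% and 3.15% of transcripts in DMSO and in 12.7%, 9.08% and 7.73% with palbociclib. The groups did not overlap, but the edgeR adjusted p was 0.0810, and only 17, 18 and 20 inclusion reads stood behind the palbociclib values. The authors' deposited rMATS table gives this event a false discovery rate of 0.00357, the 1 event of the 10 genes under 0.05 there. In POLE, an alternative 3′ splice site that adds 704 bases was used in 0.981% ± 0.342 of transcripts in DMSO and 0.165% ± 0.186 with palbociclib (SD, n = 3), with an edgeR adjusted p of 0.148.

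The other 3 events named by rule were retained introns and were not called. In POLA2, a 1365-base intron was retained in 1.80% ± 0.163 and 2.51% ± 0.484 of transcripts (edgeR adjusted p 0.557), and an 887-base intron in 3.28% ± 0.164 and 4.54% ± 1.70 (edgeR adjusted p 0.657). In POLD2, a 306-base intron was retained in 3.33% ± 0.0778 and 4.04% ± 0.371 (edgeR adjusted p 0.668), each as DMSO and palbociclib means with the SD over 3 libraries.

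**Figure D5:**
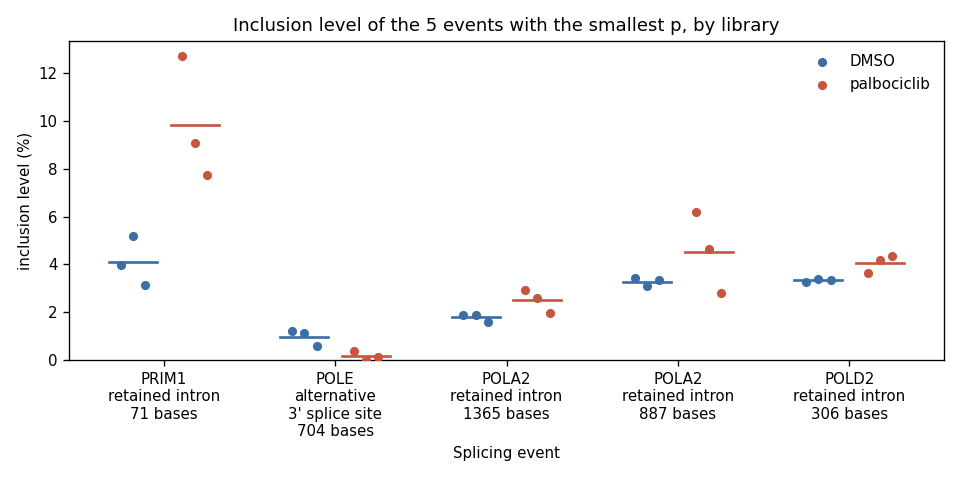
Inclusion level in percent in each of the 6 RNA libraries for the 5 splicing events of the 10 genes with the smallest p; points are libraries and bars are group means. The PRIM1 intron lies between 3.15% and 5.20% in DMSO and between 7.73% and 12.7% with palbociclib, and none of the 5 events passed an adjusted p of 0.05.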

How the data were processed

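RNA values are FPKM as deposited by the authors, 1 column per library; the submitters' processing notes name fastp, Salmon, STAR and DESeq2 without saying which step each served, and GRCh38. The authors' DESeq2 table holds p-values, log2 fold changes, a Wald statistic (a score) and, as a signal value, a mean normalized count, per the file headers. The splicing tables, deposited by the authors, hold rMATS inclusion and skipping reads, inclusion levels, a difference of levels (a score) and p-values. For ATAC, the deposited counts are featureCounts reads per peak, per the file headers, where the command sets paired input but no pair counting. The counting strand and the rMATS version are not given in the sources used here.

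From these, limma 3.58.1 (R 4.3.3) was fitted with an intensity trend to log2(FPKM + 1), edgeR 4.0.16 to peak counts (TMM, filterByExpr), and edgeR to inclusion and skipping reads with library, form and form-by-treatment terms. Tested events had at least 20 reads per library on average, with 5% or more in the minor form. The fits were also run on simulated data with known changes. For peaks these were larger than the changes reported here, and for RNA larger than many of them, POLD2 and POLD4 among these. For splicing only retained introns were simulated, with shifts larger than those of the retained introns named here. How well smaller changes, or changes in other types of splicing event, are found was not tested. Symbols come from the deposited DESeq2 table, with gaps filled by gene ID from a reference list. Gene starts came from RefSeq, and that of POLD3 from its gene span and the strand in the splicing tables.

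Named were all 10 genes, the other 3 subunits, the 3 largest called falls and rises of each list, peaks within 1 kb of the starts, the 5 events with the smallest p, and the 5 nearest profiles. The genes and lists were chosen with earlier results of these data known. Alternatives covered pseudocount, filters, scaling, tool, left-out libraries and a replicate block. The limma and edgeR p-values set the difference between groups against the spread between the samples of a group. That spread also draws on all features tested. The exact permutation p instead ranks the difference among all assignments of the libraries to groups. The series' design text calls the samples of a group biological replicates.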

Additional observations from a re-analysis of the deposited data

How the results depend on the processing

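Each of the 10 genes stayed called lower in RNA in all 13 alternatives, with log2 changes from -2.95 (POLE2) to -0.53 (POLD2), and 4 start peaks stayed lower in all alternatives run. Under quantile normalization and under median centring, 3 genes of the list of repair, translesion and mitochondrial polymerases were higher in place of 1. In both, 4 genes of that list were lower in place of 5, as without DMSO replicate 1 and without DMSO replicate 2. With a filter at a mean of 1 FPKM, 6 genes of that list were lower. Under median centring 5 subunits of RNA polymerase II were lower in place of 10. Over all genes, 3628 were lower and 3312 higher (52.3% lower), against 2856 and 4588 (38.4%) with quantile normalization and 2465 and 5468 (31.1%) with median centring. Over all peaks, 2464 were lower and 2061 higher (54.5% lower), against 1533 and 981 with the DESeq2 Wald test and 2030 and 2573 (44.1% lower) with library totals. With single libraries left out there were 1557 to 2176 lower and 1103 to 1874 higher peaks. Leaving out single libraries gave 0 to 1 higher clamp loaders and PCNA partners. In the list of repair, translesion and mitochondrial polymerases it gave 1 to 2 higher genes. The log2 difference of PRIM2 to POLA1, -0.00048, lay between -0.069 and 0.045 with single libraries left out, turning positive without DMSO replicates 1 (0.030) and 3 (0.015) and without palbociclib replicates 2 (0.023) and 3 (0.045). A pseudocount of 1 moved the log2 differences of POLD2 to POLD1 to 0.59, POLD4 to POLD1 to 1.63, POLE2 to POLE to -1.27 and PCNA to POLD1 to -1.38, since it draws low levels toward each other. Of all splicing events, 133 were called, against 44 without the filter on the minor form, 248 with the replicate block and 59 to 126 with single libraries left out. The labels do not say whether replicate numbers pair the libraries, and the correlations below do not settle it. Deviations of same-numbered libraries correlated at -0.0051 to 0.106 in RNA, -0.028 to 0.042 in ATAC and 0.0075 to 0.019 in splicing, and not every library correlated best with its own number. With the replicate block 1 event of the 10 genes was called, the PRIM1 intron (edgeR adjusted p 0.0248, and 0.0887 to 0.329 with single libraries left out). With that block 6 in place of 5 genes of the list of repair, translesion and mitochondrial polymerases were lower. The block changed no other call of a named gene, no other list count and no call of a peak of the 10 genes. Where no cause is given, the cause was not tested. With 2 inclusion reads or fewer in each palbociclib library, the level of the POLE event is uncertain.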
